A study of Mus musculus with 8 samples.

Results

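The genes described here are 10 genes of the circadian clock, Arntl, Clock, Per1, Per2, Per3, Cry1, Cry2, Nr1d1, Nr1d2 and Dbp, matched by symbol. They were chosen with earlier results of these data known. All 10 were found among the 23861 genes measured in hair follicle stem cells (HFSCs) and among the 16231 genes measured in epidermal stem cells (EpdSCs). The mammalian clock is a feedback loop of transcription that turns once a day. The proteins of Arntl (also called BMAL1) and Clock pair up and switch on the Per and Cry genes, whose proteins return to the nucleus and block that pair. A second loop runs through the repressors Nr1d1 and Nr1d2 (REV-ERB alpha and beta), which compete with ROR activators at Arntl, and Dbp carries the rhythm to other genes. In skin the clock is known for timing division in the epidermis and for its part in hair cycle progression.

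The study measured RNA by bulk sequencing in stem cells sorted from dorsal skin of mice mutant for Msx2, a homeobox transcription factor of the hair follicle, and of WT mice. HFSCs were sorted as CD34+ CD49f+ Sca-1− cells and EpdSCs as CD34− CD49f+ Sca-1+ cells, after the skin had been left in trypsin overnight in the cold. The mutant mice were homozygous for an Msx2 allele with a pMC1-neo cassette placed before exon 2, and the WT mice were C57BL/6J animals matched by hair cycle. Each cell type had 2 WT libraries and 2 libraries labelled KO. HFSCs came from WT mice of 2 months and KO mice of 6 months, so age and genotype cannot be told apart there, whereas all EpdSC mice were 6 months old. Library names also went with the label. In HFSCs they began with YC in WT and with Ch in KO. In EpdSCs all began with Ch, with numbers that ran together within a label and apart between labels. What the names stand for is not given, so what goes with them cannot be told apart from genotype in either cell type. Nothing in the labels says that replicates came from separate animals, so p-values measure the spread between these libraries, which may be technical. All mice lived in a daily cycle of light and dark, and the time of day at which skin was taken is not given in the sources used here.

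The HFSC values were estimated counts, scaled here to a common library size and called normalized counts below, with totals before scaling of 4324511 and 3132974 in WT, against 11016659 and 6895606 in the libraries labelled KO. The EpdSC values were a signal that the authors had already normalized, with sums of 16478545 and 14681964 in WT, against 24694442 and 14216483 in the libraries labelled KO. The tables were normalized separately, so levels are compared within a cell type only. Libraries of one label were not alike. Of the HFSC genes tested, 0.118% and 0.964% had no count in WT replicates 1 and 2, against 25.2% and 14.1% in KO replicates 1 and 2. In EpdSCs 1.73% and 1.29% of genes were listed at 0 in WT, against 20.2% and 5.82% in the libraries labelled KO. Mitochondrial ribosomal RNA took 8.94% and 36.3% of the WT HFSC counts and 49.4% and 53.2% in the libraries labelled KO. In EpdSCs it took 23.5% and 16.4% in WT, 0.073% in KO replicate 1 and 6.18% in KO replicate 2. The part of these differences in the results below was not tested.

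Msx2, the targeted gene, had 39.4 and 12.6 normalized counts in the WT HFSC libraries and 24.2 and 21.3 in those labelled KO. In EpdSCs its signal was 58.5 and 85.4 in WT, against 150.3 and 22.2 in the libraries labelled KO. The groups overlapped in both cell types, with a log2 fold change of -0.20 in HFSCs and -0.27 in EpdSCs, so Msx2 RNA did not separate the labels. The cassette sits before exon 2 and the values are sums over the gene, so they do not check the genotype, and every direction below rests on the labels.

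Among the 10 clock genes, Per2 and Cry2 were lower in both libraries labelled KO than in both WT libraries in HFSCs and again in EpdSCs. In EpdSCs Nr1d1 and Per3 also lay lower and Dbp, the output gene, lay higher, whereas in HFSCs Nr1d2, Per1 and Clock lay lower, and Cry1, not tested there, was at 0 in both libraries labelled KO. With edgeR in HFSCs and limma in EpdSCs, none of these differences passed the study's thresholds, which ask for a fold change over 2 in either direction with an adjusted p under 0.05. In HFSCs 9 of the 10 genes passed the filter on low counts and were tested with edgeR's quasi-likelihood test. That test called 0 of the 9, beside 0.0% of all 14422 genes tested. At an unadjusted p under 0.05, 2 of the 9 passed, Per2 and Nr1d2. Of these only Per2 also had a fold change over 2, a pair of criteria that 17.2% of all genes met. DESeq2 called 1 clock gene, Per2, and 4.78% of all genes, and limma-trend called 0 clock genes and 9.76% of all genes. Both libraries labelled KO lay below both WT libraries for 5 of the 9 genes, beside 33.5% of all genes, and above them for 0 of the 9, beside 17.5%.

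In EpdSCs, limma called 0 of the 10 clock genes, beside 9.35% of all 16231 genes. With a mean-variance trend it again called 0, beside 13.1% of all genes. On reads estimated from the signal, a test added after the results were seen, DESeq2 called 1, Dbp, beside 28.4% of all genes, and edgeR called 0, beside 0.0%. Only Dbp had an unadjusted p under 0.05 together with a fold change over 2, which 35.3% of all genes had. Both libraries labelled KO lay below both WT libraries for 4 of the 10 genes, beside 44.5% of all genes, and above them for 1, beside 27.8%. The median log2 fold change of the clock genes was -0.35 in HFSCs, beside -0.14 for all genes tested, and -0.39 in EpdSCs, beside -0.64. With Cry1, which was not tested in HFSCs, set at its bound given below, the HFSC median was -0.64. The HFSC median moved to -1.18 when libraries were scaled by their totals, which moved the median of all genes by -0.86.

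**Figure D1:**
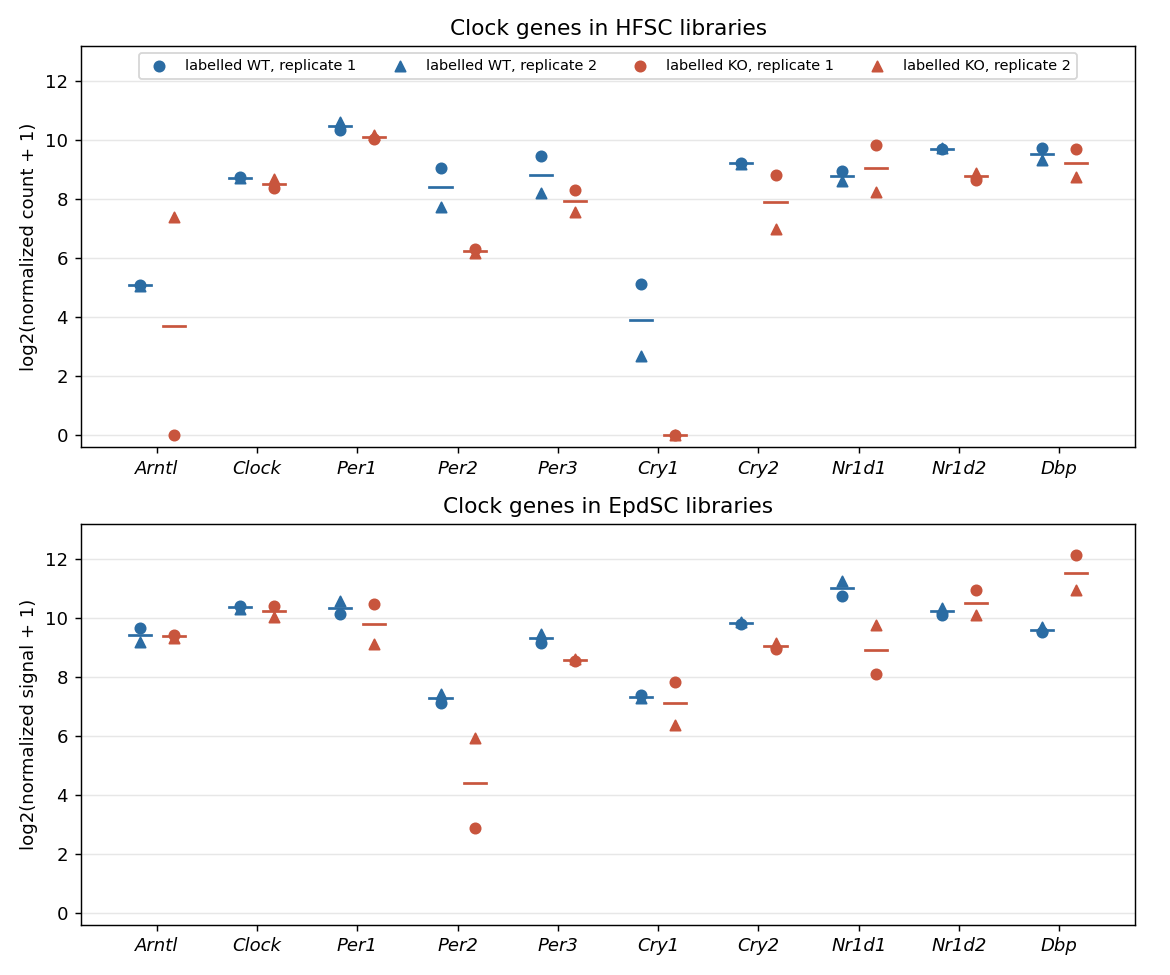
Level of each clock gene in each library, on a log2 axis of normalized count + 1 in HFSCs (top) and of normalized signal + 1 in EpdSCs (bottom), where circles and triangles are replicates 1 and 2, and bars are the means of the 2 log2 values, in WT (blue) and in libraries labelled KO (red). Per2 lies lower in the libraries labelled KO in both panels, Dbp lies higher in EpdSCs only, and Arntl is at 0 in KO HFSC replicate 1.

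Arntl encodes the activator on which the loop depends. It lies on chromosome 7 from 113207465 to 113314126 of GRCm38. In WT HFSCs it had 33.4 and 32.4 normalized counts, from 45 and 18 counts. KO replicate 1 had 0 counts of Arntl among its 11016659, which allows up to 1.82 normalized counts (3 counts, counting error only), and KO replicate 2 had 166, from 141 counts. One library labelled KO therefore lay at least 18.1-fold below the WT mean and the other 5.06-fold above it, so the groups overlapped. The log2 fold change, 1.33 (standard error (SE) 2.47, edgeR adjusted p = 0.901), averages these opposite values. It was 2.31 without KO replicate 1, and it turned to -0.73 with limma-trend. Without KO replicate 2 the fit gave -8.30, whose size is not exact, as the only library labelled KO then had 0 counts. The bound for that library remains at least 18.1-fold. Arntl was not alone in such opposite values, since 1422 genes, 9.86% of those tested, had 0 counts in KO replicate 1 and more than both WT libraries in KO replicate 2. In EpdSCs the Arntl signal was 810.2 and 582 in WT, against 688 and 642 in the libraries labelled KO. Both of the latter lay between the WT libraries (log2 fold change -0.05, SE 0.49, limma adjusted p = 0.949).

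Clock encodes the partner of ARNTL. Its normalized counts in HFSCs were 434 and 417 in WT, against 333 and 407 in the libraries labelled KO. The HFSC groups did not overlap, but the log2 fold change was -0.20 (SE 0.25, edgeR adjusted p = 0.825). The EpdSC signal of Clock was 1365 and 1278 in WT, against 1358 and 1057 in the libraries labelled KO. Those groups overlapped, and the log2 fold change was -0.14 (SE 0.48, limma adjusted p = 0.84).

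Per2 encodes a repressor of the loop and lies on chromosome 1 from 91415982 to 91459324. In HFSCs it had 537 and 214 normalized counts in WT, against 77.6 and 72.0 in the libraries labelled KO. The WT libraries were far apart, and both libraries labelled KO, close to each other, lay below them. The means were 376 ± 228 (SD, n = 2) and 74.8 ± 3.91 (SD, n = 2), and the fitted difference was -2.33 on the log2 scale (SE 0.57, edgeR adjusted p = 0.143). The log2 fold change of Per2 in HFSCs was lower than that of all but 14.2% of the genes tested. Its adjusted p was 0.0396 with DESeq2, and over the tests, scalings and filters tried it ran from 0.0396 to 0.212. In bulk samples such as these, fewer cells that express a gene and less of its RNA per cell cannot be told apart.

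In EpdSCs the Per2 signal was 138 and 172 in WT, against 6.37 and 60.7 in the libraries labelled KO. KO replicate 1 was the lowest, and neither library labelled KO reached a WT value. The log2 fold change, on log2(value + 1), was -2.86 (SE 1.21, limma adjusted p = 0.182), and 24.6% of all genes had a lower value. It was -1.33 at its smallest and -4.39 at its largest when single libraries were left out, the latter without KO replicate 2.

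The other Per genes differed less. Per1, a repressor that also responds within hours to light, stress and glucocorticoid signals, had 1293 and 1556 normalized counts in WT HFSCs and 1056 and 1171 in the libraries labelled KO. Both of the latter lay below WT, and the difference was -0.35 on the log2 scale (SE 0.23, edgeR adjusted p = 0.583). Its EpdSC signal was 1124 and 1518 in WT, against 1414 and 558 in the libraries labelled KO, which overlap. Per3, the family member with a weaker part in the loop, had 700.3 and 297 normalized counts in WT HFSCs and 319 and 188 in the libraries labelled KO. WT replicate 1 stood above the others, and the groups overlapped. The Per3 signal in EpdSCs was 569.7 and 703 in WT, against 371 and 391 in the libraries labelled KO. These groups did not overlap, and the difference of -0.73 on the log2 scale (SE 0.47, limma adjusted p = 0.315) was close to the median of all genes. Per3 lies within the span of Camta1 on the same strand, with no shared exon.

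Cry1 and Cry2 encode cryptochromes, the strongest repressors of the ARNTL and CLOCK pair. Cry1 was low in HFSCs, with 46 and 3 counts in WT, against 0 and 0 in the libraries labelled KO, and did not pass the filter. Against a floor of 3 counts in each library labelled KO, its WT mean of 19.8 normalized counts was at least 7.38-fold higher, and the WT libraries themselves differed by 34.2 to 5.39. In EpdSCs Cry1 was present in every library, at 167 and 154 in WT, against 229 and 82.2 in the libraries labelled KO. The KO values lay on either side of WT (log2 fold change -0.22, SE 0.70, limma adjusted p = 0.832).

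Cry2 had 604 and 587 normalized counts in WT HFSCs and 450.2 and 126 in the libraries labelled KO. Both of the latter were lower, and KO replicate 2 was the lowest of the 4. The log2 fold change was -1.04 (SE 0.66, edgeR adjusted p = 0.563), and it was -0.41 without KO replicate 2 and -2.26 without KO replicate 1. In EpdSCs Cry2 had a signal of 894 and 939.9 in WT, against 494 and 567 in the libraries labelled KO. The replicates of each label were close there, and the groups did not overlap (log2 fold change -0.79, SE 0.46, limma adjusted p = 0.281). That value was near the median of all genes, with 48.0% of them lower. An RNA gene on the opposite strand, D930015M05Rik, shares exon sequence with Cry2. Its signal in EpdSCs was 47.7 and 33.2 in WT and it was listed at 0 in both libraries labelled KO, a difference that limma called.

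Nr1d1 encodes REV-ERB alpha, a repressor of Arntl that the ARNTL and CLOCK pair itself switches on, and lies on chromosome 11 from 98767932 to 98775333. In HFSCs it had 499 and 392 normalized counts in WT, against 921 and 305 in the libraries labelled KO. The library with no Arntl counts, KO replicate 1, had the highest Nr1d1 value, and KO replicate 2 had the lowest. The log2 fold change was 0.46 (SE 0.59, edgeR adjusted p = 0.837), and it turned to -0.37 when libraries were scaled by their totals. The EpdSC signal of Nr1d1 was 1736 and 2421 in WT, against 273 and 864 in the libraries labelled KO. Both of the latter were lower, and the WT mean was 2078 ± 485 (SD, n = 2), against 569 ± 417 (SD, n = 2). The difference was -2.07 on the log2 scale (SE 0.77, limma adjusted p = 0.155, 0.0763 to 0.214 over the tests, designs, pseudocounts, filters and scalings tried), and 32.3% of all genes were lower.

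The end of Nr1d1 overlaps exons of Thra, a thyroid hormone receptor gene on the opposite strand. The libraries were stranded, but whether the counting used strand is not given in the sources used here, so reads in the overlap may belong to either gene. In HFSCs Thra had 636 and 484 normalized counts in WT, against 287 and 419 in the libraries labelled KO, and was lowest in KO replicate 1, where Nr1d1 was highest. In EpdSCs the Thra signal was 1435 and 1721 in WT, against 70.4 and 917 in the libraries labelled KO. There the lowest Thra value was in the same library as the lowest Nr1d1 value.

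Nr1d2, the gene of REV-ERB beta, had the smallest SE among the clock genes tested in HFSCs. It had 829 and 847 normalized counts in WT, against 406 and 472 in the libraries labelled KO. Replicates were close within each label and the groups were well apart, with a difference of -0.93 on the log2 scale (SE 0.22, edgeR adjusted p = 0.143) that fell short of the 2-fold threshold. In EpdSCs its signal was 1105 and 1309.8 in WT, against 1974 and 1091 in the libraries labelled KO. Here KO replicate 1 was high and KO replicate 2 was close to WT, and the difference of 0.29 on the log2 scale (SE 0.56, limma adjusted p = 0.724) turned to -0.25 when mitochondrial and ribosomal RNA genes were left out and the rest scaled by library totals.

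Dbp encodes a factor of the PAR bZIP family that binds D-boxes and is among the genes most directly driven by the ARNTL and CLOCK pair. It lies on chromosome 7 from 45705088 to 45710203. In HFSCs it had 862 and 647 normalized counts in WT, against 841 and 434 in the libraries labelled KO, which overlap (log2 fold change -0.24, SE 0.41, edgeR adjusted p = 0.885). The EpdSC signal of Dbp was 734 and 823 in WT, 4466 in KO replicate 1 and 1962 in KO replicate 2. The WT libraries were close together and both libraries labelled KO lay above them, KO replicate 1 the furthest. The means were 778 ± 63.4 (SD, n = 2) and 3214 ± 1770.2 (SD, n = 2), and the difference between mean log2 values was 1.93 (SE 0.63, limma adjusted p = 0.127, 0.0219 to 0.207 over the tests, designs, pseudocounts, filters and scalings tried, the lowest with DESeq2 on estimated reads). Of all genes, 87.0% had a lower log2 fold change. Dbp shares exon sequence at its end with Sphk2 on the opposite strand, whose signal in EpdSCs was 1194 and 1171 in WT, against 912 and 768 in the libraries labelled KO. Sphk2 thus lay in the other direction from Dbp.

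**Figure D2:**
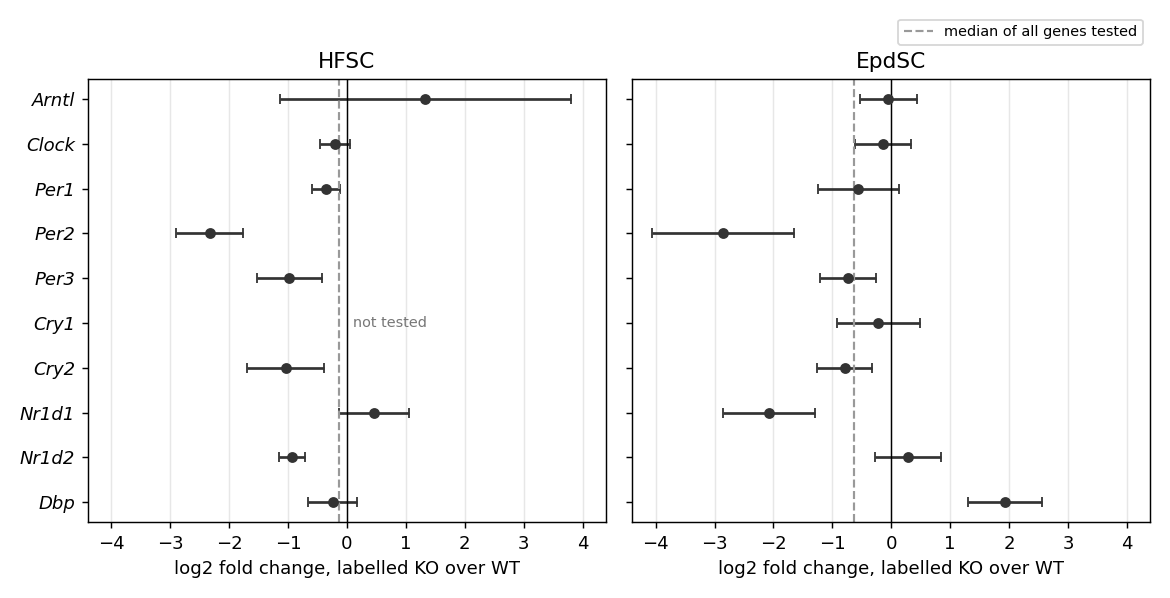
Log2 fold change of each clock gene, libraries labelled KO over WT, in HFSCs (left, edgeR) and EpdSCs (right, limma on log2 of value + 1), where points are estimates, bars are standard errors, and the dashed line is the median of all genes tested, -0.14 in HFSCs and -0.64 in EpdSCs. Per2 is far to the left in both, Nr1d1 only in EpdSCs, and Arntl in HFSCs has a standard error of 2.47.

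Because each label had 2 libraries, calls also turned on single libraries. Without KO replicate 1, edgeR called 3 clock genes in HFSCs, Arntl, Cry2 and Per2, and without KO replicate 2 it called 5, Arntl, Cry1, Per2, Nr1d1 and Nr1d2. The shares of all genes called in the same fits were 36.6% and 59.1%. In EpdSCs limma called 1 clock gene, Dbp, without KO replicate 1, and 3, Per2, Nr1d1 and Dbp, without KO replicate 2, beside 37.6% and 63.9% of all genes. With each of the 4 libraries left out in turn, the log2 fold change of Per2 in HFSCs ran from -2.93 without WT replicate 2 to -1.54 without WT replicate 1, and its edgeR adjusted p from 0.0203 to 1.0. That of Nr1d2 ran from -1.05 without KO replicate 2 to -0.85 without KO replicate 1. In EpdSCs Nr1d1 ran from -2.90 without KO replicate 2 to -1.25 without KO replicate 1, and Dbp from 2.52 to 1.34 without the same libraries. In each of these fits the lone library of a label was assumed to vary as those of the other label did. The median absolute log2 ratio between the 2 libraries labelled KO was 0.53 over 8 clock genes above 0 in both and 1.01 over all such genes in HFSCs, and 1.02 over 10 clock genes and 1.24 over all genes in EpdSCs. Between the WT libraries it was 0.31 and 0.46 in HFSCs and 0.27 and 0.28 in EpdSCs.

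Ratios of clock genes within a library do not depend on how libraries were scaled. The ratio of Clock to Arntl was 13.0 and 12.9 in the WT HFSC libraries, at least 183 in KO replicate 1, where Arntl had no counts, and 2.45 in KO replicate 2. In EpdSCs that ratio was 1.68 and 2.20 in WT, against 1.97 and 1.65 in the libraries labelled KO. The ratio thus lay between 1.65 and 2.20 in all 4 EpdSC libraries, while in HFSCs the WT libraries were alike and the libraries labelled KO lay on either side of them. All ratios to Arntl below share its 0 and 141 counts in the HFSC libraries labelled KO, so this split is set by Arntl and is no separate result for each gene.

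The ratio of Nr1d1 to Arntl, repressor to activator, was 14.9 and 12.1 in WT HFSCs, at least 507 in KO replicate 1 and 1.83 in KO replicate 2. In EpdSCs it was 2.14 and 4.16 in WT, against 0.398 and 1.34 in the libraries labelled KO, both of them lower than WT. The ratio of Per2 to Arntl in EpdSCs was 0.17 and 0.295 in WT, against 0.00926 and 0.0944 in the libraries labelled KO. Dbp lay the other way there, with a ratio to Arntl of 0.905 and 1.41 in WT, against 6.49 and 3.05 in the libraries labelled KO. In HFSCs the ratio of Dbp to Arntl was 25.8 and 20.0 in WT, at least 463 in KO replicate 1 and 2.61 in KO replicate 2. The ratios of Per1, Per2 and Per3 to Arntl in HFSCs were 38.7, 16.1 and 21.0 in WT replicate 1 and 48.1, 6.61 and 9.17 in WT replicate 2. They were at least 581, 42.7 and 176 in KO replicate 1 and 7.04, 0.433 and 1.13 in KO replicate 2. In EpdSCs the ratio of Per1 to Arntl was 1.39 and 2.61 in WT, against 2.06 and 0.869 in the libraries labelled KO, and that of Per3 was 0.703 and 1.21 in WT, against 0.539 and 0.609.

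Dbp and Nr1d1 are both driven by the ARNTL and CLOCK pair, and their ratio was chosen after the values were seen. In EpdSCs Dbp was 0.423 and 0.34 times Nr1d1 in WT, 16.3 times in KO replicate 1 and 2.27 times in KO replicate 2. Nr1d1 was thus the more abundant of the pair in reads in both WT libraries and Dbp in both libraries labelled KO. In HFSCs the ratio was 1.73 and 1.65 in WT, against 0.914 and 1.42 in the libraries labelled KO, lower in both. The ratio of Dbp to Per2, chosen in the same way, was higher in both libraries labelled KO in each cell type, at 1.61 and 3.02 in WT, against 10.8 and 6.02 in the libraries labelled KO in HFSCs. In EpdSCs it was 5.33 and 4.80 in WT, against 701 and 32.3 in the libraries labelled KO. The difference between cell types was not tested.

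**Figure D3:**
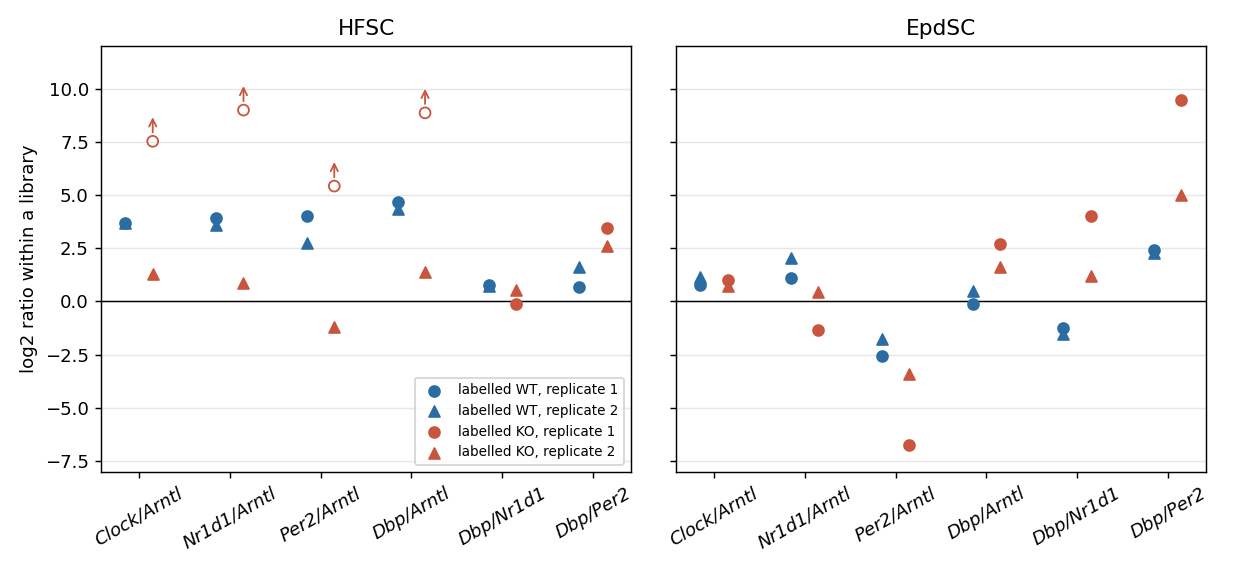
Log2 ratios of clock genes within each library, in HFSCs (left) and EpdSCs (right), where circles and triangles are replicates 1 and 2 in WT (blue) and in libraries labelled KO (red), and open circles with arrows are lower bounds, where Arntl had 0 counts. In EpdSCs the ratio of Dbp to Nr1d1 lies below 0 in WT, at -1.24 and -1.56, and above 0 in the libraries labelled KO, at 4.03 and 1.18.

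Levels of different genes were compared per kilobase of exon. In WT HFSCs Per1 and Dbp were the most abundant, at 253 ± 33.0 and 252 ± 50.9 normalized counts per kb (SD, n = 2), and did not differ beyond their spread. Nr1d2 and Nr1d1 followed at 155 ± 2.41 and 145 ± 24.6 per kb, again within their spread, then Cry2 at 94.2 ± 1.82. Per2, Per3 and Clock, at 64.1 ± 39.0, 51.9 ± 29.7 and 31.0 ± 0.888 per kb, overlapped in their spread, and that of Per2 also reached Cry2. Cry1 and Arntl were lowest, at 5.92 ± 6.09 and 4.37 ± 0.0986 per kb. In the HFSC libraries labelled KO the order was Dbp at 213 ± 96.3, Nr1d1 at 199 ± 142 and Per1 at 198 ± 14.5 per kb, which did not differ beyond their spread, then Nr1d2 at 81.2 ± 8.67. The spread of Nr1d1 also reached Nr1d2 and Cry2. Cry2 at 45.6 ± 36.2 overlapped Nr1d2 above and Clock at 27.0 ± 3.82, Per3 at 26.4 ± 9.68 and Per2 at 12.8 ± 0.668 per kb below. Arntl, at 0 in KO replicate 1 and 22.1 per kb in KO replicate 2 (11.1 ± 15.6), overlapped these 4 genes in its spread, and Cry1 was at 0.

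In WT EpdSCs Nr1d1 led at 675 ± 157 signal per kb (SD, n = 2). Dbp, Per1 and Nr1d2 came next, at 260 ± 21.2, 235 ± 49.5 and 223 ± 26.8 per kb, within their spread. Cry2 was at 145 ± 5.19 per kb, Clock at 96.3 ± 4.44 and Arntl at 92.6 ± 21.4, so that both genes of the activator pair were at like levels per length. Per3 was at 66.2 ± 9.79, overlapping Arntl in its spread, Cry1 at 48.0 ± 2.78 and Per2 lowest at 26.4 ± 4.12 per kb. In the EpdSC libraries labelled KO Dbp led at 1074 ± 591 per kb, followed by Nr1d2 at 283 ± 115, Nr1d1 at 185 ± 136 and Per1 at 175 ± 107, which overlapped. The spreads of Nr1d1 and Per1 also reached Arntl, Clock, Cry2 and Cry1, and that of Cry1 reached Clock and Cry2. Arntl, Clock and Cry2 lay together at 88.4 ± 4.26, 87.9 ± 15.5 and 83.9 ± 8.14 per kb. Cry1 at 46.6 ± 31.1 and Per3 at 39.6 ± 1.5 overlapped, and Per2 was again lowest at 5.72 ± 6.56 per kb.

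A wider list of 24 clock genes, with the ROR activators, further E-box repressors, other PAR bZIP factors and the kinases and ubiquitin ligases that act on PER and CRY proteins, was described in the same way. In HFSCs all 24 were tested and edgeR, DESeq2 and limma-trend each called 0, beside 0.0%, 4.78% and 9.76% of all genes. An unadjusted p under 0.05 was found for 3, Rora and Tef among them, each lower in the libraries labelled KO, and 2 of the 24 also had a fold change over 2, beside 17.2% of all genes. Both libraries labelled KO lay below both WT libraries for 8 of the 24 genes, beside 33.5% of all genes, and above for 2, beside 17.5%. The median log2 fold change was -0.21, beside -0.14 for all genes. In EpdSCs 23 were tested and limma called 0, beside 9.35% of all genes, with an unadjusted p under 0.05 for 8 genes that were higher and 1 that was lower. All 9 had a fold change over 2, criteria met by 35.3% of all genes. Both libraries labelled KO lay above both WT libraries for 13 of the 23, beside 27.8% of all genes, and below for 5, beside 44.5%. The median log2 fold change was 0.85, beside -0.64 for all genes. With a mean-variance trend limma called 1 of the 23, Bhlhe40, beside 13.1% of all genes, and on estimated reads DESeq2 called 8, Bhlhe40 among them, beside 28.4%, and edgeR 0.

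Rora encodes an activator of Arntl that competes with REV-ERB proteins. In HFSCs Rora had 405 and 339.9 normalized counts in WT, against 74.5 and 144 in the libraries labelled KO (log2 fold change -1.77, SE 0.45, edgeR adjusted p = 0.143). The groups did not overlap.

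Tef, a relative of Dbp that also binds D-boxes, had 2264 and 1674 normalized counts in WT HFSCs and 1111 and 901 in the libraries labelled KO. Bhlhe41 and Bhlhe40 encode DEC repressors, which bind E-boxes in competition with the ARNTL and CLOCK pair. Bhlhe41 had 318 and 156 normalized counts in WT HFSCs and 144 and 76.8 in the libraries labelled KO. Bhlhe40 lay in the other direction, at 135 and 77.3 in WT, against 270.2 and 170.0 in the libraries labelled KO. Its EpdSC signal was 816 and 1385 in WT, against 5236 and 4489 in the libraries labelled KO, a difference of 2.19 on the log2 scale (SE 0.54, limma adjusted p = 0.0864). Bhlhe40 was thus higher in both libraries labelled KO in each cell type, with a log2 fold change of 1.05 in HFSCs that shrank to 0.12 when libraries were scaled by their totals. Nono, a nuclear RNA-binding protein that joins PER complexes, had 444 and 426 normalized counts in WT HFSCs, against 499 and 632 in the libraries labelled KO, a direction that turned with library totals, to a log2 fold change of -0.50.

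Of the 17 wider clock genes in EpdSCs with groups that did not overlap and a mean of at least 100, those described here were among the 8 with the lowest unadjusted p, and they lay higher in the libraries labelled KO, as Bhlhe40 did. Usp2, a ubiquitin protease of the clock, had a signal of 70.4 and 103 in WT, against 802 and 418 in the libraries labelled KO (log2 fold change 2.75, SE 0.60, limma adjusted p = 0.0731). Ciart, an E-box repressor, had 24.9 and 61.7 in WT, against 169 and 292 in the libraries labelled KO. Neither gene overlapped between the labels. Wee1, a kinase that holds cells before mitosis and that the clock drives in other tissues, had 638 and 1071 in WT, against 5255 and 2923 in the libraries labelled KO. Fbxw11, a ligase subunit that acts on PER proteins, had 825 and 782 in WT, against 5038 and 2300.4 in the libraries labelled KO. KO replicate 1 was the higher of the pair for Usp2, Wee1 and Fbxw11, as for Dbp. Tipin, a partner of TIMELESS, had 104 and 112 in WT, against 452 and 334 in the libraries labelled KO. Wdr5, a subunit of histone methyltransferase complexes, had 383 and 379 in WT, against 17256 and 2263 in the libraries labelled KO, which differed widely.

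Other gene lists also differed between the labels, and their part in the clock results was not tested. As for all HFSC genes, edgeR called 0 of their members in HFSCs. The gene said to lead a list had its highest mean over the 4 libraries, and was not the highest in each library for every list. The sorting marker Cd34 had 2731 and 2427 normalized counts in WT HFSCs and 986 and 799 in the libraries labelled KO, and Itga6, the gene of CD49f, had 923 and 1054 in WT, against 676 and 455. So both markers of the HFSC gate were present in every library and lower in those labelled KO. The 10 genes of HFSC identity summed to 37122 and 36328 in WT, against 19857 and 21998 in the libraries labelled KO, with Krt15 the most abundant and none at 0. Of these 10, 7 lay lower in both libraries labelled KO, beside 33.5% of all genes, and 3 overlapped. The 7 measured genes of basal epidermis summed to 44877 and 45506 in WT, against 28611 and 27332 in the libraries labelled KO, led by Col17a1, and Ly6a, the gene of Sca-1, was not analysed here in HFSCs. Of these 7, 5 lay lower in both libraries labelled KO, beside 33.5% of all genes. Trp63 overlapped and Krt14 lay higher, at 3552 and 3716 in WT, against 4779 and 4102. The sums of suprabasal, sebaceous and cycling genes were higher in the libraries labelled KO. The 8 suprabasal genes summed to 1069 and 1205 in WT, most of it Sbsn at 622 and 944, against 4519 and 17539 in the libraries labelled KO, where Krt10 was highest. Krt10 had 194 and 104 in WT, against 2245 and 9043 in the libraries labelled KO, and Krt1 had 114 and 45.0, against 1362 and 5279. Lor was at 0 in the first 3 of these libraries. The 6 sebaceous genes, led by Scd1, summed to 144 and 151 in WT, against 6236 and 4711 in the libraries labelled KO. The 6 cycling genes, led by Mki67, summed to 281 and 355 in WT, against 3115 and 2224. Both libraries labelled KO lay above both WT libraries for 6 of the 7 suprabasal, 5 of the 5 sebaceous and 5 of the 6 cycling genes tested, beside 17.5% of all genes. Sbsn and Pcna overlapped, and Scd3, not tested, was at 0 in both libraries labelled KO.

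Genes of other cell types were low in HFSCs. The 5 fibroblast genes, led by Col1a2, summed to 336 and 379.5 in WT, against 195 and 170.0 in the libraries labelled KO, and Pdgfra was at 0 in both of the latter. The 5 immune genes summed to 61.8 and 30.9 in WT, against 112 and 57.9, led by Cd74, the only one that lay higher, with Ptprc at 0 in both libraries labelled KO. The 4 endothelial genes, led by Pecam1, summed to 59.4 and 34.5 in WT, against 33.9 and 22.4. The melanocyte gene Mitf stood higher, at 990 and 1036 in WT, against 236 and 194 in the libraries labelled KO. It made up most of the WT sum of the 4 melanocyte genes, 1069 and 1201, against 508 and 274 in the libraries labelled KO. Tyrp1 and Pmel were at 0 in both of the latter. The remaining gene, Dct, overlapped, at 58.7 and 113 in WT, against 271 and 80.3, with a log2 fold change of 1.04. Immediate early genes, which rise within minutes when cells are stressed or dissociated, singled out WT replicate 2. The 10 genes, led by Jun, summed to 4665 and 25358 in WT, against 3736 and 1569 in the libraries labelled KO. The 7 glucocorticoid-responsive genes, led by Zbtb16, summed to 3837 and 7174 in WT, against 2069 and 1974. Per2 and Per3 were lower in WT replicate 2, where immediate early genes were highest, than in WT replicate 1. Per1 lay the other way, at 1293 in WT replicate 1 and 1556 in WT replicate 2.

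In EpdSCs the sums of both identity lists were higher in the libraries labelled KO, but their members did not all lie higher. Ly6a had a signal of 472 and 544 in WT, against 826 and 3493 in the libraries labelled KO, Itga6 had 8229 and 9959 in WT, against 68397 and 32855, and Cd34 was not analysed here in EpdSCs. The 8 genes of basal epidermis summed to 248395 and 297012 in WT, where Krt5 was highest, against 682865 and 536504 in the libraries labelled KO, where Krt14 was highest. Of these 8, 5 lay higher and 1 lower in both libraries labelled KO, beside 27.8% and 44.5% of all genes. The lower one was Itgb4, at 7432 and 11067 in WT, against 183 and 1148. The 8 measured HFSC identity genes summed to 83139.9 and 100273 in WT, against 235750.1 and 182216, most of it Krt15, with Lgr5 at 0 in WT replicate 1. Of these 8, 4 had a negative and 4 a positive log2 fold change, and 5 overlapped. The 8 suprabasal genes were led by Krt10 and summed to 299839 and 216564 in WT, against 107407 and 82075 in the libraries labelled KO, with Flg at 0 in KO replicate 2. Of these 8, limma called 2, Sbsn and Ivl, both lower, beside 9.35% of all genes, and 5 lay lower in both libraries labelled KO, beside 44.5%. The suprabasal sum lay in the other direction from HFSCs, and the difference between cell types was not tested. The 11 immediate early genes summed to 10678 and 21208 in WT, where Jun was highest, against 92083 and 126036 in the libraries labelled KO, where Ier2 was highest in replicate 1 and Dusp1 in replicate 2. Of the 11, 6 lay higher in both libraries labelled KO, beside 27.8% of all genes, and 2 lay lower, Jun and Fosl1. The 7 glucocorticoid-responsive genes, led by Klf9, summed to 6661 and 8003 in WT, against 43324 and 15554 in the libraries labelled KO. The 1 gene of this list that limma called, Zbtb16, beside 9.35% of all genes, was lower in the libraries labelled KO, in the other direction from the sum. Of the 7 glucocorticoid-responsive genes, 3 lay higher in both libraries labelled KO, beside 27.8% of all genes. Lower in both were 2, Zbtb16 and Fkbp5, beside 44.5%. Dbp, Wee1 and the sum of this list were each highest in KO replicate 1, as were Klf9, Sgk1, Mt2 and Tsc22d3. Fkbp5, Zbtb16 and Mt1 were lowest there.

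The 6 cycling genes summed to 4048 and 3458 in WT EpdSCs and 8906 and 3217 in the libraries labelled KO, and their members lay in opposite directions. Mki67 was at 2517 and 2055 in WT, against 7.64 and 294 in the libraries labelled KO. Ccna2, Ccnb1, Birc5 and Pcna lay higher in both of the latter, as did 27.8% of all genes. The 2 sebaceous genes, led by Scd1, summed to 3631 and 4513 in WT, against 23819 and 10173. Immune genes were high in WT replicate 1 alone, where 6 genes led by Cd74 summed to 597, against 56.7 in WT replicate 2 and 17.7 and 8.19 in the libraries labelled KO, in which Ptprc and Cd3e were at 0. Vim, the measured fibroblast gene, had 237 and 19.0 in WT and was listed at 0 in both libraries labelled KO. Pecam1, the measured endothelial gene, had 8.67 and 4.74 in WT, against 24.2 and 18.2, and Mitf, the measured melanocyte gene, had 112 and 175 in WT, against 24.2 and 238.

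The genes whose pattern was most like a clock gene were found over all 8 libraries as the smallest root mean square difference in log2(value + 1), centred on the mean of each table, among 5216 genes with a mean of at least 100 in both. For Arntl, whose own root mean square distance from its means was 1.92, they were Rmc1 at 0.37, Homer2 at 0.60 and Napa at 0.62. Rmc1 had 88.4, 112, 0.606 and 305 normalized counts in WT replicates 1 and 2 and KO replicates 1 and 2 of the HFSCs. All 3 genes were close to 0 in KO replicate 1 and highest in KO replicate 2, as Arntl was. For Dbp, with a distance of 0.80 from its own means, they included Pcmtd2 at 0.11 and Lmbrd1 at 0.15. In EpdSCs Pcmtd2 had a signal of 407 and 506 in WT, against 2616 and 988 in the libraries labelled KO.

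Promoter sequences from RefSeq (build GRCm38.p6), 250 bases before to 50 after a transcription start, were found for 9 of the 10 clock genes, as 13 windows. They were searched on both strands for the E-box CACGTG that the ARNTL and CLOCK pair binds, for the D-box as TTATGTAA, TTACGTAA or TTATGCAA, and for the core of the ROR element, TAGGTCA. The E-box and TTACGTAA read the same on both strands, and no motif overlaps another. An E-box was in 2 of the 13 windows, at Cry1 and Per1, and in 7.15% of all 32851 promoters. A D-box was in 2, at Per1 and Per3, against 1.78% of all promoters, and the ROR core was in 1, at Arntl, against 2.61%. The windows of Dbp, Nr1d1, Nr1d2, Cry2 and Clock held none of these letters, which says nothing of sites elsewhere. The 4 windows with a match are shown since they carry the elements through which the loop is known to run, with the matched letters in capitals. They lie at chr11:69098699-69098998 (Per1, plus strand), chr4:151044616-151044915 (Per3, minus strand), chr10:85185005-85185304 (Cry1, minus strand) and chr7:113207261-113207560 (Arntl, plus strand).
Per1: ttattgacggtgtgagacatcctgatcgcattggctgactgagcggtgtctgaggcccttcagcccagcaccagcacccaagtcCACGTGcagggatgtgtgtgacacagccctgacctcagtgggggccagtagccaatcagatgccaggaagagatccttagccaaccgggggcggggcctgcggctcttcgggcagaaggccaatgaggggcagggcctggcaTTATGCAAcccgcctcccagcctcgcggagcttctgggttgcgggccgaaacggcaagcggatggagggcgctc
Per3: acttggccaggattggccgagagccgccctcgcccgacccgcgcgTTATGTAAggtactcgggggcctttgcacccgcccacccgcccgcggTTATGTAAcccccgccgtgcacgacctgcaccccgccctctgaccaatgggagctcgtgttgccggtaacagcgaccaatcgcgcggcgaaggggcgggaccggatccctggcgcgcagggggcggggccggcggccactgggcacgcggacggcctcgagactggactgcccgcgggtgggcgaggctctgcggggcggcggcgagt
Cry1: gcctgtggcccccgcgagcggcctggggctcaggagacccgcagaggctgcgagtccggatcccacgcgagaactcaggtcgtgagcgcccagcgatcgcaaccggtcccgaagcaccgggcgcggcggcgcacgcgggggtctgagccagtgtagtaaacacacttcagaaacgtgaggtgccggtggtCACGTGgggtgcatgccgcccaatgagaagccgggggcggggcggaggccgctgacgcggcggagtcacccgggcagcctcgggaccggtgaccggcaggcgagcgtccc
Arntl: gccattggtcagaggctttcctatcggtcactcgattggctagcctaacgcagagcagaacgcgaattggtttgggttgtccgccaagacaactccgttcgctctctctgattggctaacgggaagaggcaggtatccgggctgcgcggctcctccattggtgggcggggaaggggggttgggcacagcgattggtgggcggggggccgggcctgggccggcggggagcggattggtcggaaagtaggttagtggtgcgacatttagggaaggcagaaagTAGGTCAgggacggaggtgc
A match describes letters in a window and is not a binding site measured here. Per1 has both an E-box and a D-box, and Per3 has a D-box 2 times and no E-box. The promoter of Per2 was not analysed here.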

How the data were processed

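Bulk RNA of sorted HFSCs and EpdSCs was sequenced from a stranded total RNA kit, and the authors aligned reads with STAR 2.7.3a and quantified genes in Partek on mm10. The HFSC values are estimated counts that the authors deposited before normalization, with totals of 3132974 to 11016659. The EpdSC values are a normalized signal as made by the authors, and no counting floor is given for them. For 1 alternative, added after the results were seen, they were divided by the value of 1 read in each library, 0.674 to 1.27, and rounded to estimated reads, with library sums of 15213679 to 21092705. The authors' own comparison results were not used here.

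HFSC counts were rounded and tested with edgeR 4.0.16 (quasi-likelihood, TMM factors, filterByExpr), and values were scaled to the median library of 5563025 counts. The EpdSC signal was tested with limma 3.58.1 on log2(value + 1). Adjusted p-values are Benjamini-Hochberg values over all genes tested, two-sided, in R 4.3.3. An exact permutation test of 2 against 2 libraries cannot go below p = 0.333. The edgeR common dispersion was 0.823. Alternatives were DESeq2 1.42.0, edgeR and DESeq2 on estimated EpdSC reads, limma-trend (prior count 3), calls without the fold threshold, other scalings, filters and pseudocounts, a replicate block, and each library left out in turn. Floors of 3 counts cover counting error only.

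Clock genes and marker lists were matched by symbol, and members and lists were chosen with earlier results of these data known. Wider clock genes are named if their groups do not overlap and their mean is at least 100, by lowest unadjusted p, up to 8 in each cell type, and not all of them are described here. Exon lengths and coordinates are from a GENCODE release for GRCm38 that is not the one the authors counted on. Figures were drawn with matplotlib 3.10.9 in Python 3.11.15.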

Additional observations from a re-analysis of the deposited data

Results flagged for a closer look

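For 4 genes of the wider clock list described here, both libraries labelled KO lay below both WT libraries in HFSCs and above both in EpdSCs. The difference between cell types was not tested for any of them, the HFSC groups also differ in age, and the tables were normalized separately. The log2 fold change of Rora was -1.77 in HFSCs and 0.85 in EpdSCs, where its signal was 3545 and 3346 in WT, against 7891 and 4907 in the libraries labelled KO. For Tef it was -0.97 in HFSCs and 0.40 in EpdSCs, and the EpdSC value turned to -0.13 with mitochondrial and ribosomal RNA genes left out and library totals. Wdr5 had -1.80 in HFSCs, from 84.7 and 79.1 normalized counts in WT, against 31.5 and 15.3 in the libraries labelled KO, and 4.03 in EpdSCs. Wee1 had -3.78 in HFSCs, from 106 and 164 in WT, against 0 and 20.1 in the libraries labelled KO, and 2.24 in EpdSCs.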

How the results depend on the processing

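Directions and sides of the thresholds for single clock genes mostly held, but not every setting could move them. In EpdSCs the mean-variance trend, the replicate block and the filter on means left each log2 fold change as it was. Those settings bear on calls only. The main HFSC fit called 0 of all 14422 genes tested, so a clock gene that stayed uncalled there says little of that gene. Over the tests, scalings, filters and block tried, 67 HFSC values kept both, 3 reversed and 1 newly passed the test, and 87 EpdSC values kept both, 2 reversed and 1 newly passed. With single libraries left out, 3 HFSC values reversed, among them Arntl without KO replicate 2, against 6 in EpdSCs. Cry1, which was not tested in HFSCs with all libraries, is not among the HFSC values. The cause of these changes was not tested.

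In HFSCs DESeq2 called 1 clock gene, Per2. The median of the clock genes was -0.73 with limma-trend and -1.18 with library totals, which shifted the median of all genes by -0.32 and -0.86. Arntl turned to -0.73 with limma-trend and Nr1d1 to -0.37 with library totals. The replicate block gave a median of -0.90, with the median of all genes shifted by -0.51, and turned Arntl to -1.74. Replicates of the 2 labels share only a number: across genes, which are not independent replicates, the deviations of replicate 1 from its label's mean had a correlation between labels of -0.0555 in HFSCs and -0.0225 in EpdSCs.

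In EpdSCs limma called 1 wider clock gene with a pseudocount of 10, Usp2, beside 1973 of all 16231 genes. With a mean-variance trend it called 1, Bhlhe40, beside 13.1% of all genes. The median of the clock genes was -0.66 with library totals. It was -0.92 with mitochondrial and ribosomal RNA genes left out as well, which turned Nr1d2 to -0.25. These scalings shifted the median of all genes by -0.24 and -0.50. Fits on estimated reads were added after the results were seen: the planned ones asked for whole reads, and of values under 1000 reads 73.4% to 83.0% were within 0.02 of a whole read, against 71.5% to 90.1% in HFSCs. There DESeq2 called 1 clock gene, Dbp, and 8 wider ones and gave a median of -0.30. With edgeR, which called 0, the median was -0.26 and Arntl turned to 0.0091. They shifted the median of all genes by 0.25 and 0.36.

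With single libraries left out, clock genes called ran from 0 to 5 in HFSCs and from 0 to 3 in EpdSCs, and wider clock genes from 0 to 9 and from 0 to 12. The clock median ran from -0.84 to -0.25 in HFSCs and from -0.69 to 0.020 in EpdSCs. In HFSCs Arntl ran from -8.30 to 2.31, Nr1d1 from -0.57 to 1.04 and Dbp from -0.83 to 0.15. The lowest Arntl value came from a fit whose only library labelled KO had 0 counts, so its size is not exact. In EpdSCs Arntl ran from -0.29 to 0.19, Clock from -0.32 to 0.039, Per1 from -1.23 to 0.11, Cry1 from -0.95 to 0.52 and Nr1d2 from -0.14 to 0.71. The lone library of a label was assumed to vary like the other group. The highest counts of called clock and wider clock genes came from fits without a library labelled KO. Those fits also called large shares of all genes, given above, so these counts do not set either list apart from other genes.

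Arntl gave no value with at least 10 counts in every library, and Cry1 in HFSCs gave one only with no filter or with libraries left out. With 2 libraries per label, which the labels do not tie to separate animals, a p-value that misses the threshold does not show that values did not differ. In HFSCs Cry1 had at most 46 counts in a library and Arntl at most 141, and the 0 counts of Arntl were in the library with the highest total, 11016659.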
